A study of Drosophila melanogaster with 3 samples.

Results

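Grainy head (Grh) binding was examined over the Enhancer of split complex of Drosophila melanogaster, a cluster of Notch target genes on chromosome arm 3R. Peaks were taken from 2 lists made by chromatin immunoprecipitation and sequencing (ChIP-seq), 1 with a mouse and 1 with a rabbit antibody against Grh. Every library came from w1118 embryos aged 13 to 16 h, and chromatin was fixed with 1.8% formaldehyde. The embryos were used whole, so the lists hold binding from all tissues together, and a rabbit IgG library of the same embryos was not analysed here. The peaks were chosen by position alone, as those with a deposited start from 21810000 to 21885000 on 3R in the dm3 build, a window of 75 kb. This gave 6 of 1638 mouse peaks and 23 of 12158 rabbit peaks, 29 of 13796 in all. With 1 library per antibody, no value has a replicate error, and no test between conditions was possible.

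Grh is a transcription factor of epithelia and of neural stem cells. Notch, a receptor cut upon binding its ligand, releases a fragment that enters the nucleus and switches on target genes together with the DNA-binding protein Su(H). The Enhancer of split genes are among the best known of these targets, and their basic helix-loop-helix (bHLH) proteins repress genes that drive cells towards a neural fate. In neural stem cells, where Notch keeps the cells dividing, Grh has been reported to bind at this complex. The question here is narrower, namely which peaks of whole embryos lie in its window. Such peaks cannot tell binding in neural stem cells from binding in other cells.

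The complex holds 7 bHLH genes. In their order along 3R in the RefSeq annotation of Release 6, these are E(spl)mdelta-HLH, E(spl)mgamma-HLH, E(spl)mbeta-HLH, E(spl)m3-HLH, E(spl)m5-HLH, E(spl)m7-HLH and E(spl)m8-HLH. Between them lie 4 genes of the Bearded family, which hold back the ubiquitin ligase Neuralized: E(spl)malpha-BFM follows E(spl)mbeta-HLH, E(spl)m2-BFM precedes E(spl)m3-HLH, E(spl)m4-BFM lies between E(spl)m3-HLH and E(spl)m5-HLH, and E(spl)m6-BFM lies between E(spl)m5-HLH and E(spl)m7-HLH. Kaz-m1, once called E(spl)m1, lies between E(spl)malpha-BFM and E(spl)m2-BFM, and gro, which encodes the corepressor that the bHLH proteins recruit, follows E(spl)m8-HLH. That annotation is of another build than the peak lists, so peaks are given by dm3 position and were not assigned to any of these genes. That the window covers the complex in dm3 was taken as given and could not be checked against gene positions. Where peaks are described below, the complex stands for this window of 75 kb, whose edges need not be those of the gene cluster.

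The window was rich in peaks of both antibodies. It held 6 mouse peaks, against a mean of 1.20 over the 371 windows of 75 kb that tile 3R, a ratio of 4.98. It held 23 rabbit peaks, against a mean of 8.07, a ratio of 2.85. At least as many mouse peaks lay in 6 of the 371 windows (1.62%), and at least as many rabbit peaks also lay in 6 (1.62%). No window of the tiling had at least 6 mouse and at least 23 rabbit peaks together. These counts place the complex near the top of the arm in both lists, and they describe the spread of windows within each library. Because members and measures were chosen with earlier results of these data known, this place is a description and not a test.

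One window of the tiling overlapped most of the Enhancer of split window and held 6 mouse and 22 rabbit peaks. Apart from the complex, 12 windows had 20 or more rabbit peaks, and their mouse peaks numbered from 1 to 6 with a median of 3. The window that came closest to the complex in both counts ran from 2925001 to 3000000, with 6 mouse and 22 rabbit peaks. Conversely, 5 windows apart from the complex had 6 or more mouse peaks, with 7 to 22 rabbit peaks. Over all 371 windows the median was 1 mouse and 8 rabbit peaks, so windows rich in peaks of one antibody mostly stood above the arm's median for the other as well.

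**Figure D1:**
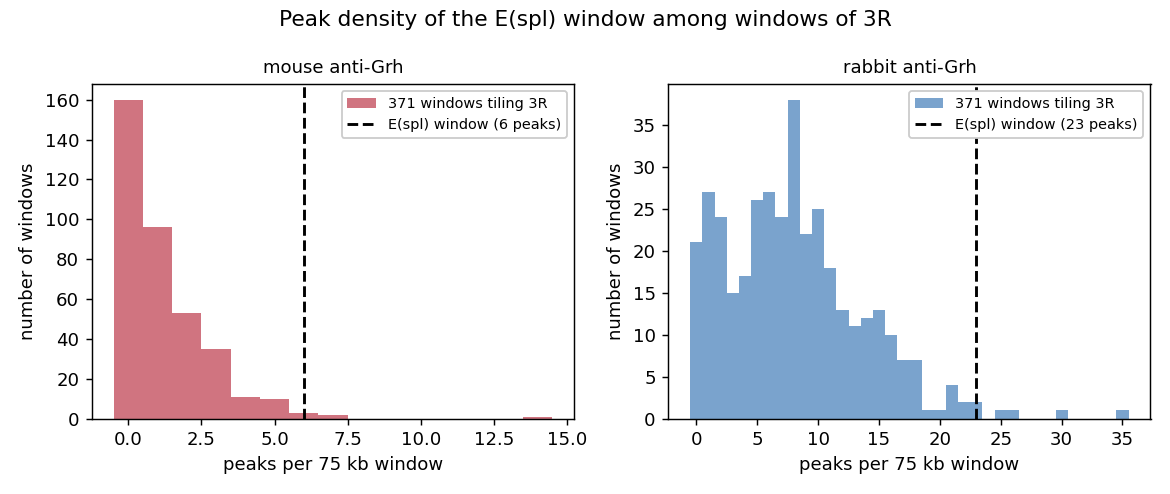
Number of 75 kb windows of 3R (vertical axis) by the peaks they hold (horizontal axis), for the mouse list on the left and the rabbit list on the right, with a dashed line at the Enhancer of split window. The window's 6 mouse and 23 rabbit peaks lie in the upper tail of the 371 windows, reached or passed by 6 windows in each list.

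The flanks of the Enhancer of split window had peak counts common on the arm. The 75 kb to the left held 1 mouse and 4 rabbit peaks, and the 75 kb to the right 2 mouse and 6 rabbit peaks, where the quartiles over windows of 3R were 0 and 2 mouse and 4 and 11 rabbit peaks. Just outside the left edge, by 741 bp, lay a mouse peak at 21809260 with a score of 2.37, and with it a rabbit peak at 21809210 with a score of 8.57. The first rabbit peak within the window lay 12622 bp from that edge (21822623, score 3.28) and the last lay 2682 bp from the right edge (21882319, score 2.47). The nearest peak beyond the right edge was a rabbit peak at 21907228 with a score of 8.67, 22227 bp away. Within the window, mouse peaks spanned 30476 bp and rabbit peaks 59696 bp.

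Each antibody's list gives a score per peak whose unit is not stated, and the score is the authors' own. The 6 mouse peaks had scores from 2.66 to 6.52 and a median of 3.77, against 5.34 over the rest of 3R and 5.27 over the whole list. With 6 peaks, the 95% interval of their median, from the order of the scores, is their whole range, 2.66 to 6.52. It therefore cannot decide if the difference exceeds counting error. They took places 466 to 1487 of 1638 when the list was ordered from its highest score. The upper 50% of the list contained 2 of them and the upper 10% contained 0. When the upper 50% of the mouse list alone was counted, the complex had 2 peaks against a mean of 0.609 per window, and 14.6% of windows on 3R had as many or more. The complex still lay above the mean, but its place near the top of the arm in the mouse list rested on peaks outside the upper 50% by score.

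The scores of the 23 rabbit peaks ran from 2.47 to 18.8 with a median of 7.69, against 6.01 over the rest of 3R and 5.98 over the whole list. The 95% interval of that median, 4.47 to 12.2, contains both values. They took places 1174 to 11407 of 12158, 13 of them in the upper 50% and 1 in the upper 10%. When the upper 50% of the rabbit list was counted, the complex had 13 peaks against a mean of 4.08 per window, and 2.43% of windows had as many or more. The highest score of the whole rabbit list was 233, far above any in the complex.

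**Figure D2:**
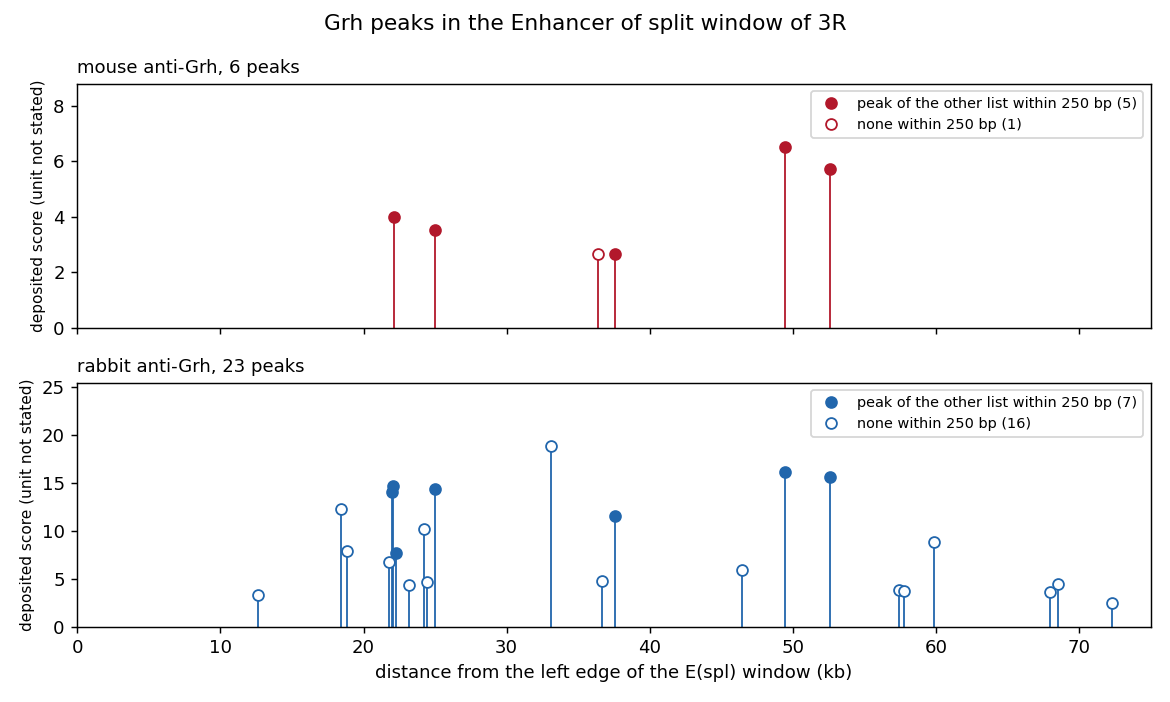
Deposited score of each peak (vertical axes, unit not stated) by its distance in kb from the left edge of the Enhancer of split window, with the 6 mouse peaks above and the 23 rabbit peaks below. Filled points have a peak of the other list within 250 bp, which is so for 5 mouse and 7 rabbit peaks, and open points have none.

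Of the 6 mouse peaks, 5 lay at a rabbit peak. These 5 had a rabbit peak within 250 bp, or 83.3% (exact 95% binomial interval 35.9 to 99.6%), where 99% of the whole mouse list and 97.5% of the rest of 3R did. The 5 partners lay 1 to 41 bp away, with a median distance of 8 bp, against 11 bp over all 1607 one-to-one pairs. The interval contains both of these shares, and with 6 peaks it cannot decide if the window differs.

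From left to right, the first pair had its mouse peak at 21832100 with a score of 4.0 and its rabbit peak at 21832092 with a score of 14.6. The second pair had its mouse peak at 21834979 with a score of 3.54 and its rabbit peak at 21834987 with a score of 14.3. These pairs lay near the left end of the bound stretch, each amid further rabbit peaks. The third pair was the closest, 1 bp apart, with its mouse peak at 21847566 scoring 2.66 and its rabbit peak at 21847567 scoring 11.5, the lowest scores among the 5 pairs for both antibodies. The fourth pair had the highest scores for both antibodies, with a mouse peak at 21859483 scoring 6.52 and a rabbit peak at 21859463 scoring 16.1. The fifth pair followed to the right, with a mouse peak at 21862576 scoring 5.73 and a rabbit peak at 21862617 scoring 15.6. In both of these last pairs the rabbit peak stood alone, with no other rabbit peak within 1 kb.

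By place in the ordered lists, the mouse peaks lay between the first 28.4% and the first 90.7% of their list, while their rabbit partners lay between 12.4% and 20.7% of theirs. Over all pairs the median place was 50% of the mouse list and 12.1% of the longer rabbit list. Ordered by score, the 5 pairs had the same order in both lists. The ratio of mouse to rabbit score ran from 0.231 to 0.404 with a median of 0.274, against 0.301 over the rest of 3R and 0.316 over all pairs (quartiles 0.248 and 0.400). The pairs of the complex fell within the bulk of all pairs in the plot of paired scores. A common scale for the 2 antibodies' scores is not given, so only the ratio's place among other pairs can be read.

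**Figure D3:**
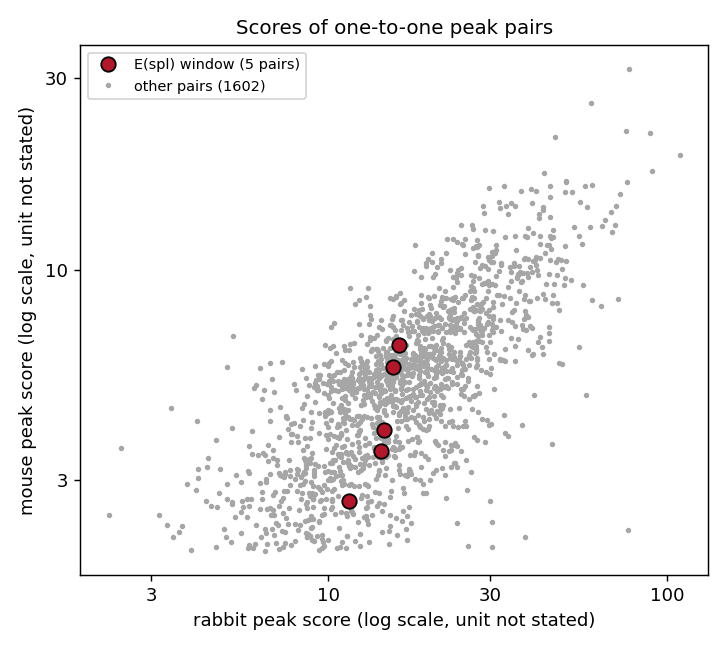
Mouse score (vertical, log scale) against rabbit score (horizontal, log scale) of all one-to-one peak pairs, each point a pair. The 5 pairs of the Enhancer of split window, drawn large, have rabbit scores from 11.5 to 16.1 and mouse scores from 2.66 to 6.52, inside the cloud of the other pairs.

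The sixth mouse peak, at 21846419 with a score of 2.66, had no rabbit peak within 250 bp. Its nearest was at 21846702, 283 bp away, with a score of 4.74, so the pair missed the distance narrowly. It is 1 of 16 such peaks in the mouse list, 12 of them on 3R, and 3 of the 16, this one among them, lay 283 bp or less from a rabbit peak. It had the lowest score of the 6, place 1487 of 1638, and its neighbour at 21847566 had place 1486. Both stood at the low-scoring end of the list, and 1 had a partner at 1 bp.

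Of the 23 rabbit peaks, 7 had a mouse peak within 250 bp, or 30.4% (13.2 to 52.9%), where 14.4% of the whole rabbit list and 15.4% of the rest of 3R did. The interval of the window reaches below both. It treats neighbouring peaks as independent, which they are not, so it cannot decide if the shares differ. The 7 matched peaks were not 7 separate sites, since 3 of them, at 21832000, 21832092 and 21832266, faced the same mouse peak at 21832100. The matched peaks had scores from 7.69 to 16.1 with a median of 14.3, and the 16 unmatched ones from 2.47 to 18.8 with a median of 4.71. Over the whole list the median was 15.7 for matched and 5.45 for unmatched peaks.

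Rabbit peaks were also compared at like scores, and the intervals of the window again contained the shares of the rest of 3R. With 5 to 9 peaks of the complex per range, they cannot decide if the shares differ. With scores from 10 to below 20, 6 of 9 rabbit peaks of the complex had a mouse partner, or 66.7% (29.9 to 92.5%), against 40.2% (35.9 to 44.5%) of 528 over the rest of 3R and 39.5% of the whole list. With scores from 5 to below 10, 1 of 5 had one, or 20% (0.505 to 71.6%), against 6.54% of 1085 over the rest of 3R. Below a score of 5, 0 of 9 had one (0 to 33.6%), against 1.20% of 1084. Inside the complex, as along the arm, the share with a partner was highest in the highest of these ranges. Among the 6 matched peaks of that range, those at 21832000 and 21832092 faced the same mouse peak, so they are not separate matches.

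**Figure D4:**
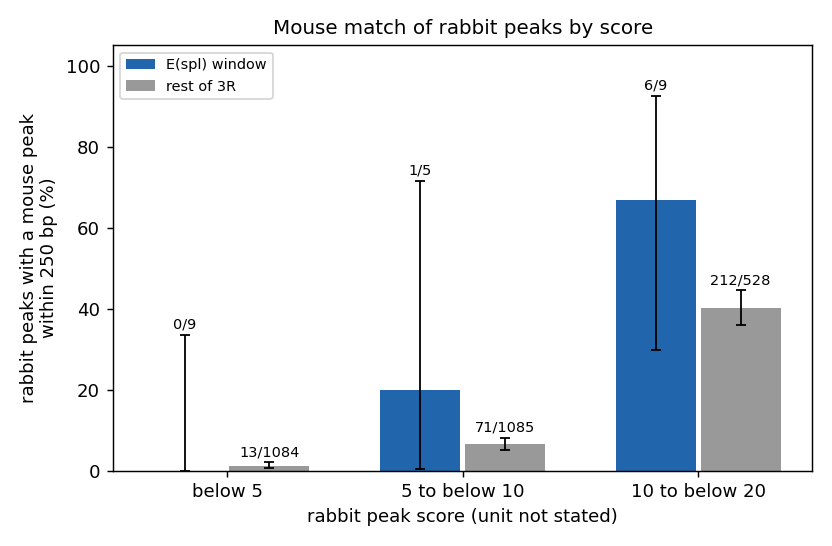
Share of rabbit peaks with a mouse peak within 250 bp (vertical axis, percent) in 3 ranges of rabbit score, for the Enhancer of split window and the rest of 3R. Bars carry exact 95% binomial intervals and the counts behind them, and from a score of 10 the share was 66.7% in the window and 40.2% over the rest of 3R, with intervals that overlap.

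The highest-scoring rabbit peak of the complex had no mouse partner. It lay at 21843107 with a score of 18.8, place 1174 of 12158, and no other rabbit peak lay within 1 kb. The nearest mouse peak was 3312 bp away, at 21846419. Over the whole list, 1176 rabbit peaks scored at least as high and 515 of them, or 43.8%, had no mouse peak, so such a peak was common. The other unmatched rabbit peaks with scores of 10 or more were at 21828425 (12.2), 3675 bp from a mouse peak, and at 21834208 (10.2), 771 bp from one.

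The 10 highest-scoring rabbit peaks were the 9 with scores of at least 10 and the one at 21869843 (8.80), which lay 7267 bp from any mouse peak. Of those 9, 5 lay in the left part of the bound stretch, at 21828425, 21832000, 21832092, 21834208 and 21834987. The other 4, at 21843107, 21847567, 21859463 and 21862617, were spaced along its middle and right. Beyond 21862617 no rabbit peak had a score over 8.80 and the window held no mouse peak.

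Many of the rabbit peaks stood in close groups. Joined at gaps of up to 1 kb, the 23 rabbit peaks formed 13 groups, 7 of them single peaks, and 16 peaks, or 69.6%, stood in groups of 2 or more, against 51.5% over the rest of 3R. The 6 mouse peaks formed 6 groups of 1 peak, where 22.2% of mouse peaks over the rest of 3R stood in groups. These shares have no interval, were not adjusted for the window's higher peak density, and their differences were not tested. The largest rabbit group held 5 peaks over 1400 bp, from 21831783 to 21833182, with scores of 6.76, 14.0, 14.6, 7.69 and 4.30. The mouse list had 1 peak there, 8 bp from the highest of the 5.

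The next group to the right held 3 rabbit peaks over 780 bp, at 21834208, 21834402 and 21834987, with scores of 10.2, 4.69 and 14.3. Its mouse peak again lay at the highest of them. The group to the left of both held 2 peaks over 400 bp, at 21828425 and 21828824, with scores of 12.2 and 7.87 and no mouse peak. In each group that had a mouse peak within 250 bp, the nearest rabbit peak was the group's highest. For the single rabbit peaks at 21859463 and 21862617 this was fixed in advance.

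Peaks of a group need not be separate binding events. Peaks carry a deposited rank in their names, and 9 of the 23 rabbit peaks had theirs in common with another of the complex: 2 at 21828425 and 21828824, 4 from 21831783 to 21832266 and 3 from 21834208 to 21834987. The 23 peaks carried 17 ranks, where the 12158 rabbit peaks of the whole list carried 6559, so sharing a rank was not particular to the complex. The share of peaks with a common rank was not counted over the whole list. It was not tested if such peaks came from a single call. Ranks are not unique labels, since 490 of 6559 rabbit ranks and 86 of 909 mouse ranks occurred on more than 1 chromosome. Counting each group once, the complex had 13 rabbit groups, and 2.70% of windows on 3R had as many or more. Counting mouse groups once, it had 6, and 0.539% of windows had as many or more.

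Long stretches of the window had no peak. At its edges, the mouse list held no peak for 22099 bp on the left and 22425 bp on the right. The rabbit list held none for 12622 bp on the left. These stretches were longer than any gap between neighbouring peaks of the same list within the window. The longest gap between neighbouring peaks was in the same place for both antibodies, running 11917 bp from 21847566 to 21859483 among mouse peaks and 8901 bp from 21847567 to 21856468 among rabbit peaks. The rabbit peak at 21856468 that ended the shorter gap had a score of 5.89 and no mouse peak within 3015 bp. Between neighbouring mouse peaks the median gap was 3093 bp and the shortest 1147 bp. Over the rest of 3R the mouse median was 28096 bp, longer than the longest mouse gap here. Between neighbouring rabbit peaks the median was 1559 bp and the shortest 92 bp, against a median of 2995 bp over the rest of 3R. On the right, 6 rabbit peaks from 21867428 to 21882319 had scores from 2.47 to 8.80 and lay 4852 to 19743 bp from the nearest mouse peak.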

How the data were processed

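The authors aligned reads with Bowtie to the dm3 build, per the submitters' processing notes. How peaks were called, and whether IgG reads entered the calling, is not given in the sources used here. Scores deposited with the peaks have no stated unit and were used only to order, describe and compare peaks within a list, or, as a ratio, to place pairs among other pairs. Each anti-Grh library has its own list, so no libraries were pooled, and its 2 bp intervals are named here by their first base. Read depth is unknown.

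The members, gene list and measures were chosen with earlier results of these data known. All mouse peaks and their partners, the 10 highest-scoring rabbit peaks and the longest gap were named by rule. Peaks matched where first bases lay within 250 bp. Windows of 75 kb tiled 3R from its first base to the highest peak end, with the incomplete last one left out, and stood in for random windows. Intervals of shares are exact 95% binomial (Clopper-Pearson), and 95% intervals of median scores come from the order of the scores. All intervals cover counting error only. They treat neighbouring peaks as independent, which they are not. Neither a dm3 genome nor dm3 gene models were used, so genes were not assigned, and the planned motif counts in promoters and comparison of bHLH proteins were not run. All 13 genes listed for the complex matched the RefSeq table, which was used for names and order. Matching was checked on the deposited lists and on planted positions, and window counts on simulated positions. Scripts ran under Python 3.11.15 with pandas 2.3.3, NumPy 2.4.6, matplotlib 3.10.9 and SciPy 1.17.1.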

Additional observations from a re-analysis of the deposited data

How the results depend on the processing

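Of 36 alternative values for 8 results, 25 stayed within the counting interval or within 1.5 times the reported count. Some of the 25 could not move. The median place by score was checked against an interval of those same places. All mouse groups in the complex were single peaks, so their count and median score stayed as reported. The upper 50% by score left 2 mouse and 13 rabbit peaks in the complex, where fewer peaks enter, and 14.6% of windows then had as many mouse peaks or more. Groups at 1 kb gave 13 in the rabbit list by construction, and 0.539% of windows had as many mouse groups or more. Windows of 50 kb gave 0.359% for mouse and 0.718% for rabbit peaks, and windows of 100 kb gave 1.44% for mouse and 3.24% for rabbit peaks. With both lists cut to their upper 50%, 2 of 13 rabbit peaks, or 15.4%, were matched. Where 2 bp intervals had to overlap, 16.7% of mouse and 4.35% of rabbit peaks were matched, by construction. Distances of 500 and 1000 bp matched 100% of mouse peaks, as the sixth then has a partner. With as many rabbit as mouse peaks kept, by score, 2 of 3 rabbit peaks, or 66.7%, were matched. The matched shares under alternative settings were computed for the window only. They cannot be set against the shares of the whole lists or the rest of the arm, which were counted at the reported setting. Leaving out the windows that overlap the complex, chosen after seeing the data, gave 1.36% for mouse and 1.63% for rabbit peaks. No paired analysis was possible because there is a single library for each antibody. For the same reason no replicate was left out. Depth is unknown, so the lengths of the lists cannot be compared free of it.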
